A study of Danio rerio with 6 samples.

Results

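The lysosomal enzyme and proton pump genes of zebrafish were followed in sorted endothelial cells of siblings, hhex mutants and embryos that overexpress hhex. Genes were taken by symbol, namely the cathepsins, legumain (lgmn), the lamp membrane proteins, the subunits of the vacuolar proton pump (V-ATPase), the hexosaminidase subunits, psap, gusb, neu1, the gns and man2b genes, the gba genes and npc1 and npc2. The pattern matched 58 genes, of which 54 had a mean normalized value of at least 5 over the 6 libraries and were kept. They stand among 20900 genes with such a mean and 31701 genes in all. The 4 genes under this mean, ctsll, ctsbb, ctss2.2 and atp6v1c2, were between 0 and 7 in every library. By role, 51 of the 54 genes act in or on the lysosome, and the remaining 3 were caught by their symbols alone. These are gbas (also nipsnap2, a mitochondrial protein gene), gba2 (a glucosylceramidase outside the lysosome) and gba3 (a cytosolic beta-glucosidase). In the pathway annotation deposited with the values, 35 of the 54 genes belong to the 137 genes listed under the term Lysosome.

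The lysosome is the acidic compartment in which cells break down proteins, glycans and lipids. The V-ATPase keeps it acidic: a cytosolic V1 sector hydrolyses ATP, and a membrane V0 sector carries protons into the lumen, where cathepsins, glycosidases and sulfatases work at low pH. The same pump also acidifies endosomes, the Golgi and secretory vesicles. In mammals many of these genes are controlled together by transcription factors of the TFEB family, and macrophages and osteoclasts, which degrade material taken up from outside, are particularly rich in them. Endothelial cells also use lysosomes to degrade receptors and other cargo taken up from the cell surface and the blood.

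All embryos were of the AB strain, carried the endothelial reporter Tg(kdrl:EGFP)s843 and were dissociated whole at 48 hpf for cell sorting. Siblings and hhex mutants were sorted for EGFP and told apart by whether parachordal lymphangioblasts were present (siblings) or missing (mutants), so that a sibling can carry the mutation on 1 chromosome. The mutants carried the s722 allele, a short in-frame deletion in the homeodomain. Embryos overexpressing hhex (OE below) also carried Tg(fli1a:tdTomato-2A-hhex)bns136, which expresses hhex from the fli1a promoter, and their cells were sorted for both tdTomato and EGFP; their genotype at the hhex locus itself is not stated. The sorting gate therefore differs between OE and the other 2 groups and cannot be told apart from the transgene. There were 2 libraries per group, and nothing states that they came from separate clutches, so that p-values measure the spread between these libraries only.

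The deposited values summed to between 19133058 and 23381023 per library, of which ribosomal RNA genes held between 32.4% and 36.0%. hhex itself was at 764 and 925 in OE, 204 and 279 in siblings and 613 and 1157 in mutants. Relative to siblings, its difference on the log2 scale was 1.81 for OE (standard error, SE, 0.33, limma adjusted p = 0.191), whereas for mutants it was 1.82 (SE 0.33, limma adjusted p = 1). Its values in OE lay above those of siblings and within those of mutants. The paper, which used DESeq2 on these libraries, lists hhex as significant against siblings for both OE and mutants. All 12 endothelial markers examined were present in every library, with kdrl between 7336 and 25369 and cdh5 between 6545 and 26660. The 12 summed to 89126 and 70252 in OE, 36083 and 60905 in siblings and 25485 and 73245 in mutants, so that sibling 1 and mutant 1 stood apart. Markers of other cells were present too, and the summed values of those of neutrophils and of macrophages were lowest in OE 1. The 10 muscle genes summed to 10947 and 30120 in OE, 68384 and 44444 in siblings and 19380 and 11628 in mutants. Other sets were higher in OE. The 8 epidermis markers summed to 6013 and 6923 in OE, 4693 and 2151 in siblings and 3313 and 1337 in mutants. The 8 neural markers, at 2460 and 2323 in OE, were also above all other libraries. The 7 pigment markers summed to 253 and 583 in OE, 82 and 293 in siblings and 165 and 97 in mutants.

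On the deposited scale both OE libraries held more lysosomal RNA than any other library, and rescaling to endothelial markers, described with the comparison, turned this direction. The 54 genes had 898 and 844 parts in 1e+06 of the summed values in OE, 587 and 612 in siblings and 443 and 576 in mutants. The proteases gave the largest part of this, with a summed value of 9542 and 8595 in OE against 4127 and 5552 in siblings and 3133 and 5697 in mutants. The V-ATPase genes summed to 3719 and 3891 in OE, 3022 and 3069 in siblings and 2787 and 3213 in mutants. In these bulk samples, fewer cells of a type and less RNA per cell cannot be told apart.

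**Figure D1:**
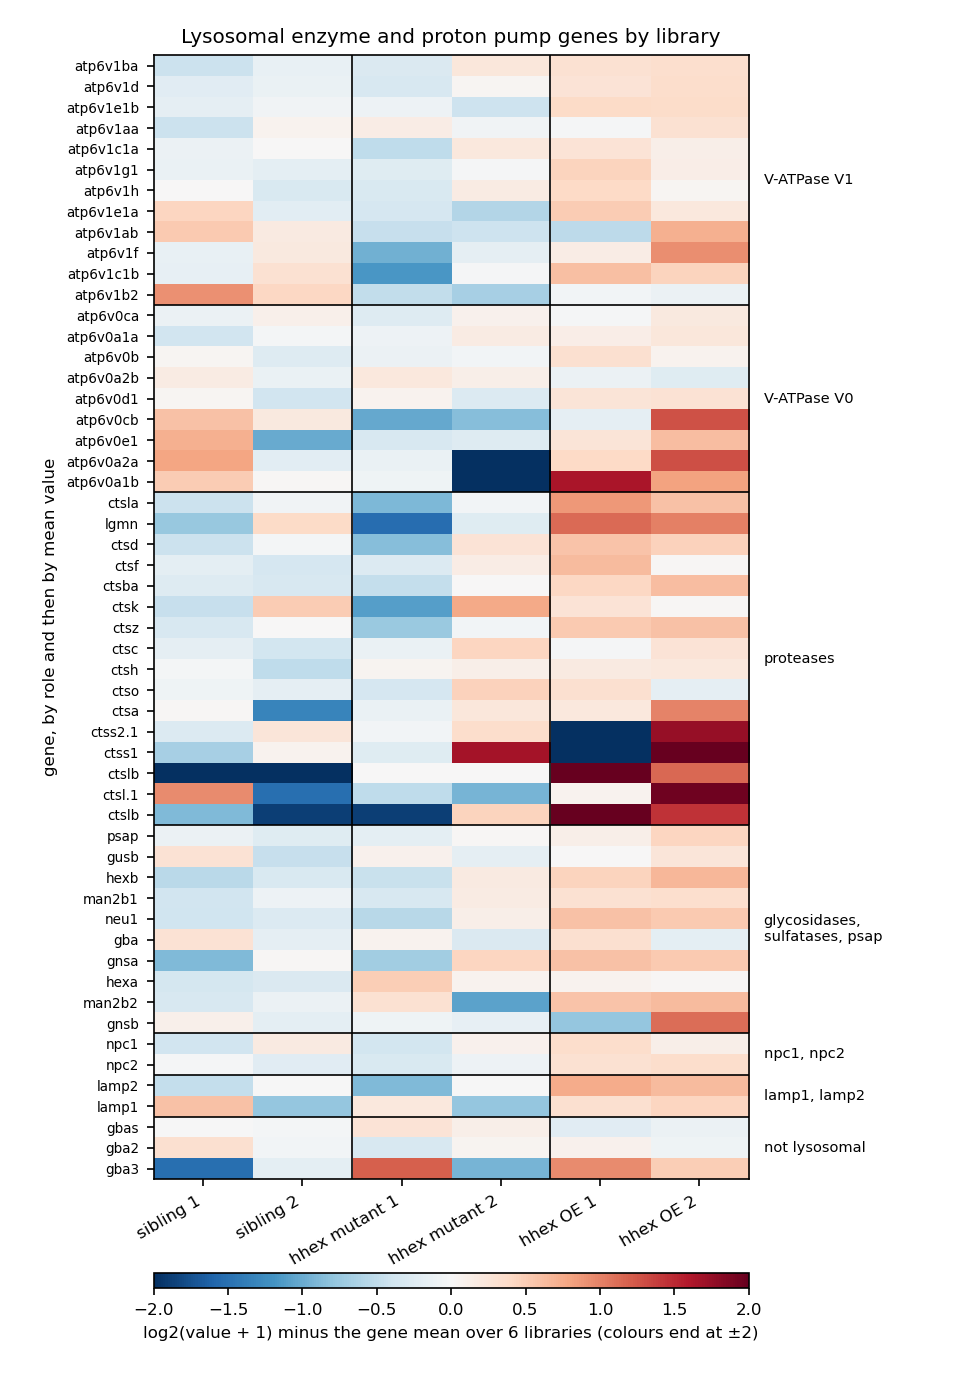
The 54 lysosomal genes (rows, grouped by role and then ordered by mean value) in the 6 libraries (columns; OE, hhex overexpression). Colour gives log2(normalized value + 1) minus the mean of the gene over the 6 libraries, with colours ending at 2 in either direction. Both OE columns are red for most genes, the first mutant column is blue for most, and ctss1, ctss2.1 and gnsb differ between the 2 OE columns. After rescaling to endothelial markers, 5 of the 54 genes (9.26%, against 5.11% of all genes) are above siblings in both OE libraries.

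Between OE and siblings, the question was whether hhex in excess goes with a different level of the lysosomal genes. No gene of any kind passed an adjusted p of 0.05 with limma (0 of 54 lysosomal genes, 0% of the 20900 genes tested). hhex itself, which the transgene expresses, did not pass in this fit, so 0 of 54 cannot be read as an absence of change. With DESeq2 the paper did call genes in this comparison, hhex among them. At an unadjusted p under 0.05, 10 of the 54 genes were higher and 0 lower in OE, where 6.23% of all genes were higher and 8.77% lower; 2 of the 10 are the ctslb loci, which passed the filter on low values through the OE libraries alone. For 32 of the 54 genes (59.3%) both OE libraries lay above both sibling libraries, against 26.9% of all genes, and for 2 genes (3.70%) both lay below, against 27% of all genes. Leaving out the 2 ctslb loci, 30 of 52 lay above and 2 below. gba3, also counted as higher, would not have reached the filter without the OE libraries. The median log2 fold change was 0.45 over the 54 genes and 0.022 over all genes, or -0.36 and -0.77 after rescaling to endothelial markers. On the deposited scale 47 of the 54 were above 0. Of 43 genes with a mean of 50 or more, 27 lay above the siblings in both OE libraries (62.8%, against 30.1% of all genes with such a mean), with a median log2 fold change of 0.45.

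The OE libraries were also richer in endothelial markers, and the scaling of the libraries bears on every statement of direction. The median log2 fold change of the 12 markers between OE and siblings was 0.83, with 11 of 12 not overlapping. The paper describes markers of endothelial cells as modulated by hhex overexpression in the endothelium. The gene fli1a, whose promoter drives the transgene, is among the markers used here. Whether these markers respond to the transgene was not tested, so values rescaled to them are an alternative and not a correction. When the libraries were rescaled to these markers, the median of all genes between OE and siblings moved to -0.77, and that of the lysosomal genes to -0.36. Relative to the endothelial markers the lysosomal genes were then lower in OE, and relative to all genes they were higher by 0.41. On that scale 5 of the 54 genes (9.26%) lay above the siblings in both OE libraries, against 5.11% of all genes, and 24.1% lay below in both, against 56.5% of all genes.

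The lysosomal genes and the endothelial markers were also set side by side in each library. Sibling 1 and sibling 2 differed in the endothelial markers, with median relative levels of -0.66 and 0.12 on the log2 scale, while the lysosomal genes were at -0.15 and -0.14. The endothelial markers were at 0.42 in mutant 2 and 0.44 in OE 2, and the lysosomal genes at 0.0092 and 0.40. OE 1 was highest in the endothelial markers, at 0.76, with the lysosomal genes at 0.30, and mutant 1 was lowest in both, at -1.13 and -0.29. The part of endothelial content in the lysosomal values was not tested. Without sibling 1, the library with fewer endothelial transcripts in that group, 38 of the 54 genes lay above the remaining sibling library in both OE libraries (70.4%, against 38% of all genes), with a median log2 fold change of 0.51.

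**Figure D2:**
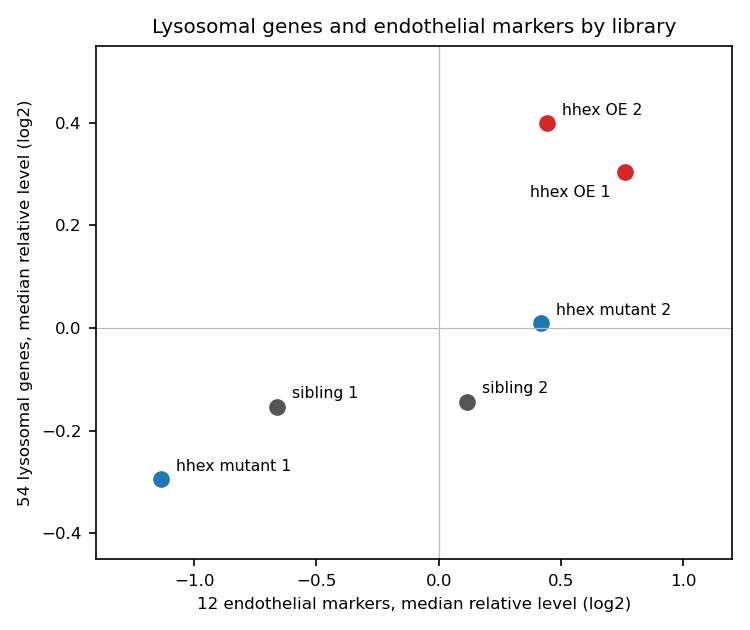
Median relative level of the 54 lysosomal genes (vertical axis) against that of 12 endothelial markers (horizontal axis) in each library, both as log2(normalized value + 1) minus the mean of the gene over the 6 libraries; each point is 1 library. The OE libraries stand at 0.30 and 0.40 on the vertical axis, and mutant 2, which is beside OE 2 on the horizontal axis, stands at 0.0092.

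Among the proteases of the lumen, legumain and cathepsin L are given first. lgmn (ENSDARG00000039150, chromosome 13, 35913844 to 35924495 in GRCz10) encodes the endopeptidase that cuts after asparagine and processes other cathepsins. Its normalized value was 2496 and 2279 in OE, 674 and 1475 in siblings and 393 and 963 in mutants. Both OE libraries lay above all 4 others, which spread over a wide range. Its log2 fold change against siblings was 1.26 (SE 0.47, limma adjusted p = 0.294) and depended on sibling 1, falling to 0.69 without it.

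ctsla (ENSDARG00000007836, chromosome 5, 44204638 to 44210767) encodes a cathepsin L, a broadly acting cysteine endopeptidase, and had the highest mean value of the 54 genes. The gene was at 4157 and 3452 in OE, 1697 and 2187 in siblings and 1228 and 2204 in mutants. Mutant 2 and sibling 2 were alike and both OE libraries stood well above them. Against siblings its log2 fold change was 0.98 (SE 0.30, limma adjusted p = 0.251).

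Cathepsins B, D and Z showed the same separation at lower values. ctsba, a cathepsin B gene (ENSDARG00000055120, chromosome 17, 32670420 to 32679003), was at 444 and 510 in OE, 279 and 267 in siblings and 240 and 334 in mutants. For ctsd, the aspartic protease cathepsin D (ENSDARG00000057698, chromosome 18, 16144529 to 16157015), the values were 754 and 700, 377 and 491, and 280 and 610 in the same order of groups. The carboxypeptidase gene ctsz (ENSDARG00000043081, chromosome 6, 49772719 to 49782709) was at 218 and 229, 121 and 152, and 90 and 146. In each case the OE libraries lay above the other 4. Log2 fold changes against siblings were 0.80 for ctsba (SE 0.25, limma adjusted p = 0.252), 0.75 for ctsd (SE 0.36, limma adjusted p = 0.361) and 0.72 for ctsz (SE 0.32, limma adjusted p = 0.34). Rescaling to endothelial markers turned these 3 changes to -0.021, -0.067 and -0.10, and left lgmn at 0.44 and ctsla at 0.15, against a median of -0.77 over all genes.

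Cathepsin A, which in mammals protects neuraminidase 1 and beta-galactosidase in a complex, had a large but uneven difference. ctsa (ENSDARG00000098114, chromosome 6, 55386994 to 55411507) was at 92 and 158 in OE, 80 and 31 in siblings and 72 and 93 in mutants. The OE libraries did not overlap the siblings, but they did overlap the mutants. The log2 fold change against siblings of 1.26 (SE 0.51, limma adjusted p = 0.313) rested on sibling 2 and was 0.59 without it. Over the 16 protease genes, 11 lay above the siblings in both OE libraries (68.8%, against 26.9% of all genes) and 0 below (against 27%). Their median log2 fold change was 0.74. Leaving out the 2 ctslb loci, these were 9 of 14 and 0.66.

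**Figure D3:**
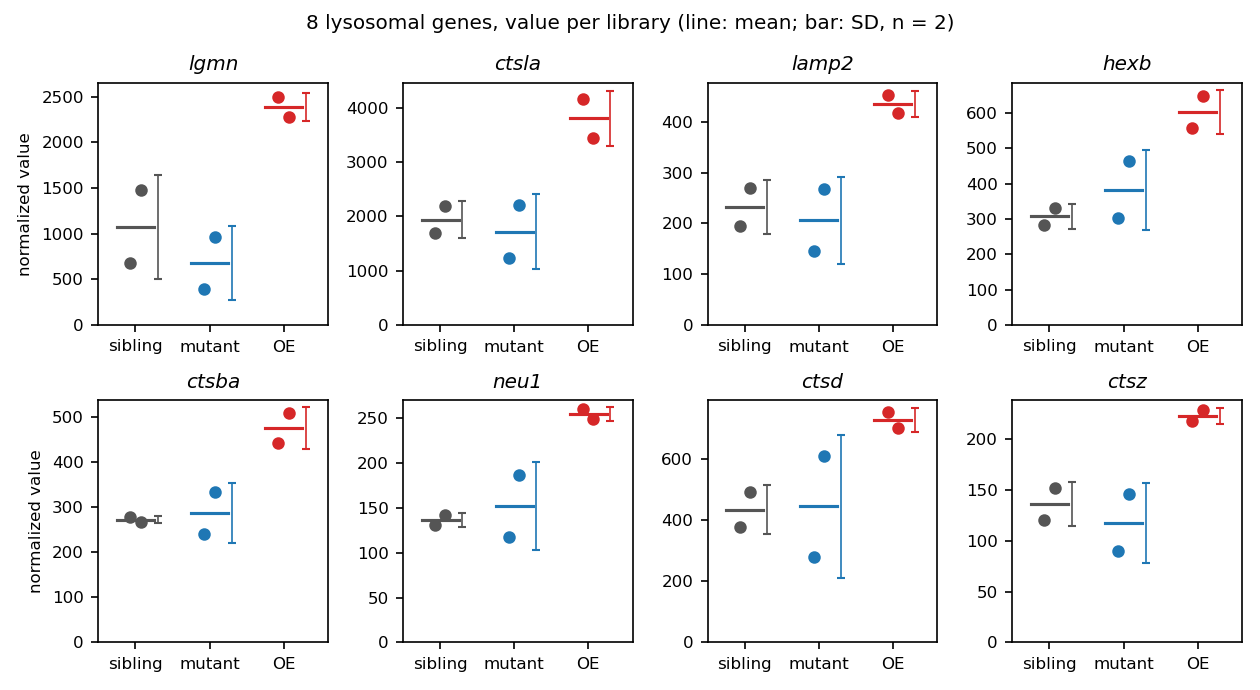
Normalized value (vertical axes, each from 0) of 8 lysosomal genes in siblings, hhex mutants and OE; each point is 1 library, the line is the group mean and the bar its SD (n = 2). In all 8 panels both OE points lie above the 4 others, for lgmn at 2496 and 2279 against 393 to 1475. On rescaling to endothelial markers ctsba, ctsd and ctsz go below siblings, and hexb, neu1, ctsba and ctsd below mutants.

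Among the enzymes that take glycans apart, hexb and neu1 had the clearest difference. hexb (ENSDARG00000034368, chromosome 5, 34000552 to 34016485), the beta subunit of hexosaminidase, which trims gangliosides and other glycans, was at 558 and 648 in OE, 283 and 332 in siblings and 302 and 463 in mutants. The sialidase gene neu1 (ENSDARG00000008832, chromosome 19, 27225985 to 27239486) was at 260 and 249 in OE, 131 and 142 in siblings and 117 and 187 in mutants. For both genes the 2 siblings lay close together and OE stood above all other libraries. Their log2 fold changes against siblings were 0.97 for hexb (SE 0.27, limma adjusted p = 0.229) and 0.89 for neu1 (SE 0.30, limma adjusted p = 0.262), and remained above 0 on the endothelial scale (0.15 and 0.076).

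The sulfatase gene gnsa, which acts on heparan and keratan sulfate, was at 160 and 153 in OE, 57 and 107 in siblings and 65 and 143 in mutants. Its log2 fold change of 0.99 against siblings (SE 0.46, limma adjusted p = 0.351) was 0.54 without sibling 1. psap, the precursor of the saposins that help enzymes reach sphingolipids, is the most abundant of this group and was at 1013 and 1257 in OE, 865 and 789 in siblings and 814 and 950 in mutants, a log2 fold change of 0.45 against siblings (SE 0.22, limma adjusted p = 0.366). The next, the beta-glucuronidase gene gusb, overlapped between all groups, at 527 and 621 in OE, 639 and 381 in siblings and 557 and 464 in mutants. The glucocerebrosidase gene gba also overlapped, at 212 and 148, 208 and 150, and 179 and 139. Of the 10 genes for glycosidases, sulfatases and psap, 7 lay above the siblings in both OE libraries (70%, against 26.9% of all genes) and 0 below (against 27%). Their median log2 fold change was 0.51. The lysosomal alpha-mannosidase gene man2b1 was among these 7, at 237 and 244 in OE against 147 and 179 in siblings. So was man2b2, a related mannosidase gene, at 102 and 107 in OE, 55 and 63 in siblings and 85 and 32 in mutants.

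The lamp and npc proteins were measured by few genes. lamp2 (ENSDARG00000014914, chromosome 14, 33133457 to 33141276), a heavily glycosylated protein of the lysosomal membrane, was at 453 and 417 in OE, 194 and 269 in siblings and 146 and 267 in mutants, differing from siblings on the log2 scale by 0.92 (SE 0.33, limma adjusted p = 0.282), or 0.11 on the endothelial scale. Its OE libraries stood apart from all others, whereas those of lamp1 did not, at 69 and 75 in OE, 83 and 32 in siblings and 64 and 32 in mutants. npc1 and npc2, whose proteins pass cholesterol out of the lysosome, differed by less. npc1 was at 999 and 848 in OE, 601 and 882 in siblings and 606 and 826 in mutants, overlapping between OE and siblings. npc2 was at 234 and 242, 187 and 162, and 154 and 177, a log2 fold change against siblings of 0.45 (SE 0.25, limma adjusted p = 0.411), and a gene on the same strand overlaps its locus.

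The proton pump had a smaller median difference on the deposited scale than the lumen enzymes. Of 21 V-ATPase genes, 11 lay above the siblings in both OE libraries (52.4%, against 26.9% of all genes) and 1 below (4.76%, against 27%). Their median log2 fold change was 0.39. Of the 30 other lysosomal genes, 20 lay above (66.7%) and 0 below, with a median of 0.58. These 30 include the 2 ctslb loci, and the difference between the 2 classes was not tested. In V1, 7 of 12 genes lay above (58.3%), and atp6v1ba and atp6v1d had the most reads. atp6v1ba, a gene of the B subunit that forms the ATP-splitting ring (ENSDARG00000013443, chromosome 17, 21352455 to 21398504), was at 460 and 469 in OE, 277 and 334 in siblings and 304 and 434 in mutants, differing from siblings on the log2 scale by 0.61 (SE 0.25, limma adjusted p = 0.323). atp6v1d, of the central stalk that turns within the ring, was at 367 and 388 in OE, 260 and 276 in siblings and 242 and 312 in mutants, a log2 fold change of 0.49 (SE 0.24, limma adjusted p = 0.363). The 2 OE libraries were close to each other for both genes. On the endothelial scale these changes became -0.21 and -0.33.

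Of the remaining V1 genes, atp6v1g1 of the peripheral stalk was at 224 and 181 in OE, 151 and 144 in siblings and 140 and 163 in mutants, above both other groups in OE.

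In V0, 4 of 9 genes lay above the siblings in both OE libraries (44.4%, against 26.9% of all genes). The most abundant was atp6v0ca, a gene of the c subunit that forms the proton-carrying ring, which overlapped between all groups at 537 and 623 in OE, 502 and 587 in siblings and 457 and 581 in mutants. atp6v0a1a, a gene of the a subunit through which protons enter and leave, was at 303 and 324 in OE, 212 and 269 in siblings and 257 and 310 in mutants, differing from siblings on the log2 scale by 0.39 (SE 0.25, limma adjusted p = 0.458). This became -0.43 on the endothelial scale. atp6v0d1, which joins the membrane sector to the stalk, was at 176 and 181 in OE, 152 and 113 in siblings and 156 and 122 in mutants, and the ring subunit gene atp6v0b was at 225 and 189, 185 and 151, and 166 and 174. Both lay above all other libraries in OE. atp6v0e1 overlapped between OE and siblings, at 35 and 45 against 48 and 14, and shares its locus with a gene on the same strand. The 1 V-ATPase gene below the siblings in both OE libraries was atp6v1b2, a second B subunit gene, described further on. gbas, one of the 3 genes with no lysosomal role, was the other gene of the 54 that lay below, at 271 and 291 in OE, 314 and 306 in siblings and 384 and 341 in mutants. Its log2 fold change against siblings was -0.14 (SE 0.22, limma adjusted p = 0.772). gba2, with 154 and 136 in OE against 180 and 139 in siblings, overlapped.

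**Figure D4:**
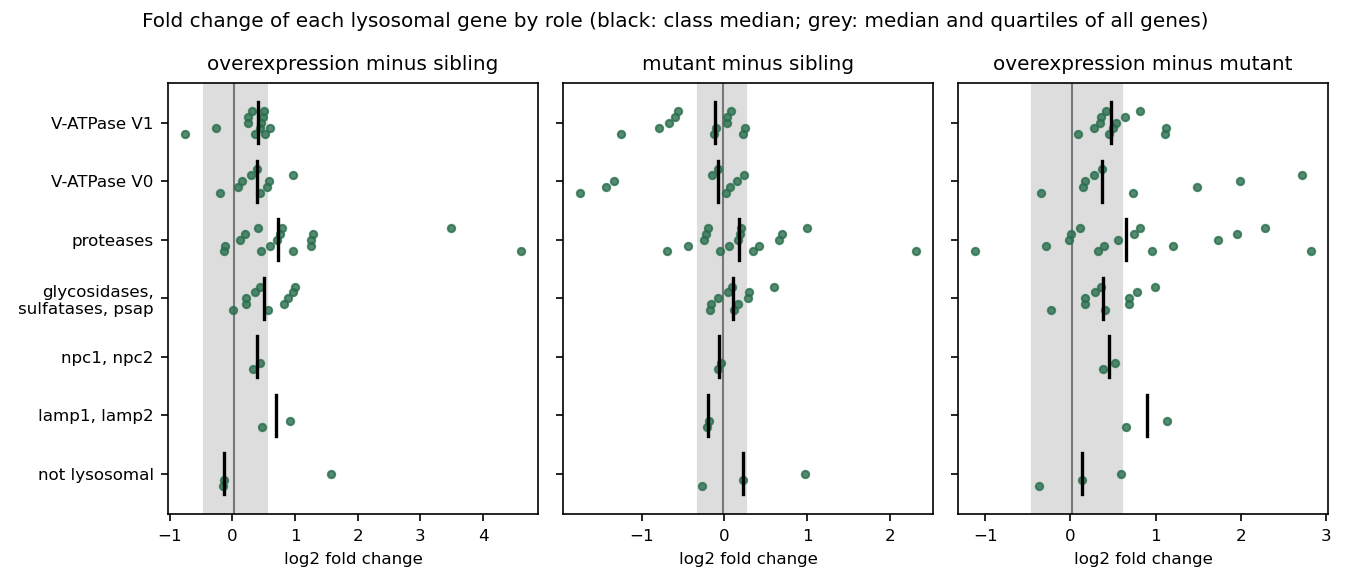
Log2 fold change of each of the 54 lysosomal genes (horizontal axes) by role (rows) in the 3 comparisons; each point is 1 gene, black ticks are class medians, and the grey line and band are the median and quartiles of all 20900 genes. In the comparisons with OE the class medians lie to the right of the grey line except for the genes with no lysosomal role between OE and siblings, and between mutants and siblings the V-ATPase genes farthest to the left are mostly the less abundant copies of duplicated genes. Rescaling to endothelial markers puts the median of the 54 genes at -0.36 and -0.41 in the comparisons with OE.

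Between mutants and siblings, which asks whether loss of hhex function goes with a different level of these genes, the lysosomal genes were close to all other genes. With limma, 0 of the 54 genes passed an adjusted p of 0.05 (0% of all genes), and at an unadjusted p under 0.05 there were 0 higher and 1 lower, where 1.23% of all genes were higher and 2.17% lower. Both mutant libraries lay above both siblings for 5 genes (9.26%, against 13.3% of all genes) and below for 6 genes (11.1%, against 13.4%). The median log2 fold change was 0.029 over the 54 genes and -0.010 over all genes, and ranged from -0.15 to 0.14 when libraries were left out in turn. The mutant libraries were far apart, with mutant 1 below mutant 2 in summed value (9872 against 13457), and the count depended on which of them was left out. Without mutant 1, 26 of the 54 genes lay above the siblings (48.1%, against 34.5% of all genes), and without mutant 2, 10 did (18.5%, against 33.9%).

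The 5 genes that were higher in both mutant libraries were enzymes of the lumen and gbas. hexa, the alpha subunit that pairs with hexb, was at 141 and 105 in mutants and 78 and 82 in siblings, a log2 fold change of 0.60 (SE 0.31, limma adjusted p = 1); in OE it was at 105 and 102. ctsc, a dipeptidyl peptidase that in mammals activates the granule proteases of leukocytes, was at 138 and 204 in mutants, 133 and 117 in siblings and 149 and 184 in OE. The aminopeptidase gene ctsh was at 127 and 132 in mutants, 119 and 86 in siblings and 138 and 141 in OE. Log2 fold changes of ctsc and ctsh against siblings were 0.42 and 0.35 (SE 0.30 and limma adjusted p = 1 for both), and that of gbas was 0.22. The fifth was ctslb, at low values given further on.

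All 6 genes that were lower in both mutant libraries encode V-ATPase subunits. They make up 28.6% of the 21 V-ATPase genes, against 13.4% of all genes. Over the 54 genes the share was 11.1%, so the list as a whole was near all genes. This grouping was seen in the values and was not tested. The means of the 6 genes lay between 19.7 and 77.3. Of the 6, 4 are the less abundant copy of a duplicated pair. Zebrafish carries 2 copies of several subunit genes. Pairs are counted here by symbols ending in a and b, and 6 such pairs are among the 21 V-ATPase genes. gnsa and gnsb, which lie outside the V-ATPase, were not counted. Between mutants and siblings their log2 fold changes were 0.30 and -0.080, gnsb being the less abundant. These pairs were singled out after their values were seen. atp6v1ba and atp6v1b2, which share the gene name ATP6V1B2, were not counted as a pair. In each of the 6 pairs the copy with fewer reads had the lower log2 fold change between mutants and siblings, with a median of -1.06 over the less abundant and 0.040 over the more abundant copies. atp6v1ab, a copy of the catalytic A subunit, was at 51 and 53 in mutants, 102 and 80 in siblings and 49 and 116 in OE, while its partner atp6v1aa was at 208 and 178, 138 and 197, and 183 and 230. In the first gene the mutants lay below both siblings, and in the second they did not.

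The less abundant copies of the remaining pairs follow. atp6v1e1a, of the peripheral stalk, was at 59 and 49 in mutants, 100 and 64 in siblings and 106 and 86 in OE. atp6v0cb, the second copy of the proton ring subunit, was at 14 and 16 in mutants, 45 and 34 in siblings and 26 and 73 in OE. Both lay below the siblings in both mutant libraries, with log2 fold changes of -0.56 and -1.33 (SE 0.37 and 0.58, limma adjusted p = 1 for both). atp6v0a1b was at 13 and 1 in mutants, 20 and 14 in siblings and 45 and 25 in OE, and atp6v0a2a was at 19 and 4, 37 and 18, and 28 and 53. atp6v1c1b was at 20 and 45 in mutants, 41 and 57 in siblings and 70 and 63 in OE. In these 3 the value of a single mutant library set the size of the difference. The log2 fold change of atp6v0a1b was -1.75 (SE 0.95, limma adjusted p = 1) but lay between -3.15 and -0.34 when libraries were left out in turn. That of atp6v0a2a, -1.43 (SE 0.79, limma adjusted p = 1), lay between -2.43 and -0.43, and that of atp6v1c1b, -0.67 (SE 0.49, limma adjusted p = 1), between -1.23 and -0.10.

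2 further subunit genes outside the 6 pairs as counted here were lower in both mutant libraries. atp6v1b2, a B subunit gene (ENSDARG00000043465, chromosome 10, 19597170 to 19609041), was at 16 and 14 in mutants, 44 and 31 in siblings and 22 and 21 in OE. It was the 1 gene of the 54 with an unadjusted p under 0.05 in this comparison (-1.25 on the log2 scale, SE 0.50, limma adjusted p = 1). atp6v1f, of the central stalk, was at 24 and 42 in mutants, 43 and 55 in siblings and 53 and 92 in OE, a log2 fold change of -0.60 (SE 0.47, limma adjusted p = 1). Neural markers are given beside these genes, since neurons use the V-ATPase to fill synaptic vesicles. The 8 neural markers summed to 1465 and 894 in mutants, 1677 and 1230 in siblings and 2460 and 2323 in OE, with a median log2 fold change of -0.50 between mutants and siblings, 2 of 8 lower without overlap and none of the 8 at 0 in any library; their summed values overlapped between these 2 groups. elavl3, a neuronal RNA-binding protein gene, was at 328 and 58 in mutants, 331 and 156 in siblings and 599 and 428 in OE. Not all neural markers fell. snap25a, snap25b and gfap had log2 fold changes of 0.56, 0.080 and 1.00 between mutants and siblings. Without overlap, 0 of the 8 were higher in mutants. Markers of some other tissues were lower in mutants. Of the muscle genes, 10 of 10 lay below the siblings in both mutant libraries and 0 above, with a median log2 fold change of -1.70. Of the liver and yolk markers tested, 4 of 7 lay below and 0 above, with a median of -0.62. Of all genes, 13.4% lay below. The part of these cells in the result was not tested.

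Between OE and mutants, which sets excess against loss of hhex function, the lysosomal genes were again higher in OE on the deposited scale and lower on the endothelial scale. This comparison shares its OE libraries with the first and its mutant libraries with the second. No gene passed an adjusted p of 0.05 with limma (0 of 54, 0% of all genes). At an unadjusted p under 0.05, 12 of the 54 genes were higher and 0 lower, where 8.68% of all genes were higher and 8.9% lower. Both OE libraries lay above both mutant libraries for 33 genes (61.1%, against 24.1% of all genes) and below for 2 (3.70%, against 24.6%). Leaving out the 2 ctslb loci, 31 of 52 lay above and 2 below, with a median log2 fold change of 0.43. ctsl.1, also counted as higher, reached the filter on low values through the OE libraries too. The median log2 fold change was 0.48 over the 54 genes and 0.020 over all genes. Without mutant 1, the library with the lowest endothelial markers, 37 of the 54 genes lay above (68.5%, against 36.7% of all genes) and the median was 0.34.

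On the endothelial scale the median log2 fold change between OE and mutants was -0.41 for the lysosomal genes and -0.87 for all genes, a difference of 0.45. Then 2 of the 54 genes (3.70%) lay above the mutants in both OE libraries, against 4.74% of all genes, and 16.7% lay below, against 42.8% of all genes.

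lgmn had the largest difference among genes with a mean of 50 or more, with a log2 fold change of 1.95 between OE and mutants (SE 0.47, limma adjusted p = 0.15). Both ctsla, at 1.203 (SE 0.30, limma adjusted p = 0.156), and lamp2, at 1.13 (SE 0.33, limma adjusted p = 0.181), came next. On the endothelial scale these 3 were at 1.05, 0.30 and 0.23. atp6v1f followed with 1.11 (SE 0.47, limma adjusted p = 0.28), with its lower value in mutants adding to it. The changes of ctsz, ctsd, neu1, ctsba and hexb were 0.96, 0.81, 0.78, 0.75 and 0.68, limma adjusted p-values lying between 0.209 and 0.291, and on the endothelial scale only ctsz of these 5 stayed above 0, at 0.054. The abundant stalk subunit gene atp6v1e1b, at 263 and 260 in OE, 187 and 151 in mutants and 177 and 190 in siblings, differed by 0.63 (SE 0.25, limma adjusted p = 0.256); it overlaps a gene on the same strand, and its change was -0.27 on the endothelial scale. The 2 genes that lay below the mutants in both OE libraries were gbas, by -0.36 (SE 0.22, limma adjusted p = 0.419), and atp6v0a2b, an a subunit gene at 159 and 145 in OE, 200 and 187 in mutants and 192 and 157 in siblings, by -0.35 (SE 0.26, limma adjusted p = 0.511).

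By role, 14 of 21 V-ATPase genes (66.7%) lay above the mutants in both OE libraries and 1 below. So did 9 of 16 proteases (56.2%), 6 of 10 glycosidase, sulfatase and psap genes (60%), both lamp genes and both npc genes, with 0 below in these. Of all genes, 24.1% lay above and 24.6% below. Leaving out the 2 ctslb loci, 7 of 14 proteases lay above. In all 6 V-ATPase pairs with symbols ending in a and b the less abundant copy had the higher log2 fold change in this comparison. The medians were 1.301 and 0.16, the largest change being atp6v0a1b at 2.71 (SE 0.95, limma adjusted p = 0.222). Outside the V-ATPase, gnsb, the less abundant of gnsa and gnsb, had the lower change, at 0.29 against 0.69. The mutant libraries that enter here are those of the comparison with siblings.

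Whether single genes passed the threshold depended on which libraries set the spread. With only the 4 OE and sibling libraries in the fit, 841 genes passed an adjusted p of 0.05 (4.02%), and 2 of the 54 were among them, ctsla (limma adjusted p = 0.0288, with 0.0281 to 0.943 across alternative fits) and hexb (limma adjusted p = 0.0344, with 0.0344 to 0.945 across alternative fits). Without mutant 2, 2512 genes passed between OE and mutants (12%), and 8 of the 54 were among them, namely lgmn, ctsla, lamp2, ctsd, ctsz, hexb, ctsba and neu1. Their adjusted p-values from limma were between 0.0047 and 0.0408 in that fit, in which the remaining mutant library is assumed to vary like the other groups, and reached 0.978 over the alternatives. Without mutant 1, 115 genes passed (0.55%) and 0 of the 54.

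Some cathepsins set the 2 OE libraries apart instead of the groups. ctss1 and ctss2.1 encode cathepsin S, which in mammals is typical of antigen-presenting and other myeloid cells. ctss1 was at 0 and 50 in OE, 5 and 9 in siblings and 7 and 29 in mutants. ctss2.1 was at 10 and 148 in OE, 36 and 52 in siblings and 42 and 56 in mutants. The sulfatase gene gnsb was at 35 and 132 in OE, 65 and 53 in siblings and 57 and 54 in mutants. In all 3 genes OE 1 was the lowest and OE 2 the highest of the 6 libraries, and they were picked for this after their values were seen.

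Leukocyte markers differed between the same 2 libraries. mpx, the neutrophil peroxidase gene, was at 60 and 2395 in OE, 403 and 963 in siblings and 552 and 2941 in mutants. lyz was at 41 and 2948 in OE, 1496 and 1951 in siblings and 2437 and 5421 in mutants, and spi1b, a myeloid transcription factor gene, was at 16 and 294, 159 and 210, and 356 and 291. The 7 neutrophil markers summed to 2082 and 10209 in OE, 4245 and 5644 in siblings and 5837 and 13507 in mutants. The summed level of the 10 macrophage markers tested was 1251 and 4096 in OE, 8677 and 8057 in siblings and 11171 and 6270 in mutants. Their median relative level on the log2 scale was -0.72 and 1.15 in OE, 0.026 and 0.21 in siblings and 0.49 and 0.30 in mutants. By that measure OE 2 was the highest library and OE 1 the lowest. Of the markers, 3 of 10 were higher and 4 lower in both OE libraries than in siblings, and c1qb was at 0 in every library. Their part in the values of ctss1, ctss2.1 and gnsb was not tested. Of the macrophage markers higher in both OE libraries, mfap4 was at 54 and 149 in OE, 12 and 4 in siblings and 18 and 3 in mutants. mpeg1.1 was at 21 and 37, 2 and 15, and 2 and 2. Of those lower, csf1rb was at 228 and 403, 2312 and 2187, and 3315 and 1199. In the plot of 8 lysosomal genes by library, lgmn, ctsla, lamp2, neu1 and ctsd were slightly higher in OE 1 than in OE 2. hexb, ctsba and ctsz were slightly lower. The part of leukocytes in the values of these 8 genes was not tested.

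**Figure D5:**
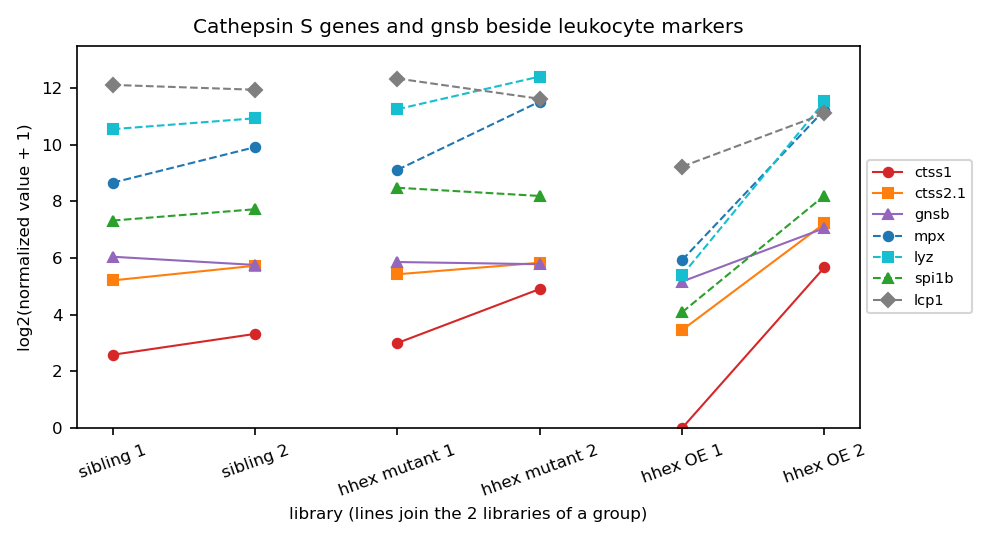
log2(normalized value + 1) of ctss1, ctss2.1 and gnsb (solid lines) and of the leukocyte markers mpx, lyz, spi1b and lcp1 (dashed lines) in each library (horizontal axis; lines join the 2 libraries of a group). All 7 genes are lower in OE 1 than in OE 2, as for ctss2.1 at 10 and 148 and mpx at 60 and 2395.

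ctsk, which in mammals degrades bone collagen, varied within every group, at 228 and 192 in OE, 137 and 268 in siblings and 87 and 321 in mutants. ctsf was at 657 and 430 in OE, 370 and 334 in siblings and 348 and 467 in mutants, above the siblings in both OE libraries. ctso was at 117 and 82, 88 and 82, and 74 and 128 in the same order of groups, with no separation.

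2 genes with few reads stayed near the filter, and without the OE libraries the mean of each would fall under it. ctsl.1, a further cathepsin L gene, was at 5 and 21 in OE, 10 and 1 in siblings and 3 and 2 in mutants, and gba3 was at 10 and 7, 1 and 4, and 12 and 2.

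The 2 loci named ctslb, on chromosome 12 at 16495264 to 16497883 and at 16569710 to 16572218, encode a cathepsin L of the hatching gland in zebrafish and were near or at 0 outside OE. The first was at 24 and 9 in OE, 1 and 0 in siblings and 0 and 4 in mutants, and the second at 53 and 10 in OE, listed at 0 in both siblings and at 4 and 4 in mutants. Both loci overlap 2 other genes on the same strand, and reads on several genes were left out, so that these values may be incomplete. They passed the filter through the OE libraries alone. Of the hatching gland markers, klf17 was at 69 and 36 in OE, 26 and 19 in siblings and 8 and 14 in mutants, while the hatching enzyme genes he1a and he1b were between 0 and 6 in every library; their part in the values of ctslb was not tested.

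Other genes of the lysosome, taken from a list of 47 symbols of which 42 were tested, stood on the same side between OE and siblings on the deposited scale. The endothelial scale, on which the median of all genes moved to -0.77, was not summarized for this list, so its direction there is not given. Both OE libraries lay above both siblings for 20 of the 42 (47.6%, against 26.9% of all genes) and below for 3 (against 27%), and at an unadjusted p under 0.05 there were 11 higher and 1 lower (against 6.23% and 8.77% of all genes). The median log2 fold change was 0.40. fuca2, a fucosidase gene, was at 318 and 262 in OE, 76 and 45 in siblings and 47 and 150 in mutants. The peptidase gene dpp7 was at 348 and 242, 95 and 117, and 87 and 216, and ppt1, which removes fatty acids from proteins, was at 310 and 210, 117 and 146, and 129 and 212. Both OE libraries were above the siblings in each of these 3, and above the mutants for fuca2 and dpp7. The alpha-galactosidase gene gla went the other way, at 0 and 8 in OE, 39 and 22 in siblings and 78 and 33 in mutants. Between OE and mutants 14 of the 42 lay above (33.3%, against 24.1% of all genes) and 6 below (against 24.6%), and between mutants and siblings 5 above (11.9%, against 13.3%) and 2 below (against 13.4%).

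The 19 regulators of lysosomal genes and sorting that were tested did not show this lean between OE and siblings. Both OE libraries lay above the siblings for 5 (26.3%, against 26.9% of all genes) and below for 5 (against 27%), with a median log2 fold change of 0.042. Between OE and mutants 7 of the 19 lay above (36.8%, against 24.1% of all genes) and 3 below (against 24.6%), with a median of 0.22. Between mutants and siblings 3 lay above (15.8%, against 13.3%) and 3 below (against 13.4%). tfeb was at 59 and 71 in OE, 71 and 47 in siblings and 45 and 56 in mutants, overlapping between OE and siblings and above the mutants in OE. tfe3a, a gene of the same family, was at 640 and 465 in OE, 333 and 412 in siblings and 283 and 432 in mutants. Both OE libraries lay above all others for tfe3a. tfec, another family member, was at 106 and 126 in OE, 56 and 79 in siblings and 5 and 30 in mutants, so that its values did not overlap between any of the 3 groups. Other members of the family did not follow. tfe3b was at 142 and 124 in OE, 97 and 148 in siblings and 158 and 121 in mutants, overlapping between all groups. mitfa was at 8 and 7, 54 and 15, and 0 and 4, so that OE lay below the siblings and above the mutants. mitfb, at 16 and 15, 21 and 16, and 10 and 11, overlapped between OE and siblings and lay above the mutants in OE.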

How the data were processed

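Total RNA of sorted cells was sequenced in 6 libraries (2 for each of 3 groups, assigned by the labels). The authors trimmed reads with Reaper, aligned them with STAR 2.4.0a to GRCz10 with the Ensembl annotation, counted reads in exons with featureCounts 1.4.5-p1, excluding reads that hit more than 1 gene or place, and normalized with DESeq2 1.62; the strand setting of the counting is not given in the sources used here. The deposited values are a normalized signal per gene (counts divided by a size factor and rounded by the authors), so no count model was run. log2(value + 1) was fitted for 20900 genes (mean 5 or more) with limma 3.58.1 (R 4.3.3), with all 6 libraries, an empirical Bayes step with trend and robust estimation, and Benjamini-Hochberg adjustment over all genes at 0.05. The fit was tested on simulated data in which 200 genes with a mean of 50 or more changed by 3 on the log2 scale. All groups had the same spread there, and changes as small as those of most lysosomal genes were not simulated. Fold changes are on the log2(value + 1) scale, which understates those of low genes. Values are not divided by gene length. Depth is the sum of values per library; the median SD of 2 libraries on the log2 scale was 0.20 in siblings, 0.31 in mutants and 0.17 in OE.

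The genes, lists and tests were chosen with earlier results of these data known. Genes named with values are, in each comparison, the 4 highest and 4 lowest non-overlapping genes with a mean of at least 50, and the 2 most abundant of each role; hexb, neu1, ctsba, ctsd, ctsz, man2b1, man2b2, atp6v1e1b, atp6v1g1, atp6v0b, atp6v0d1, atp6v0e1, ctsl.1, gba, gba3, ctsf, ctso, ctsk, the cathepsin S genes, gnsb, the duplicated copies, atp6v1b2 and ctslb were added after their values were seen, as were the marker genes named singly. Symbols were matched in lower case, which left out a second copy written LAMP1. Of the 54 genes, 53 had an identifier in a table of gene names; 16 overlap a gene on the other strand and 6 on the same strand (among the named ones, ctsla, hexb, lamp2, ctsba, gnsa, man2b1, ctsf, atp6v0ca, atp6v1f, atp6v1aa, atp6v1ab, ctss1, gbas, gba2, atp6v1d and atp6v0e1 on the other strand, and atp6v1d, atp6v1e1b, npc2, atp6v0e1 and both ctslb loci on the same strand). Alternatives were no filter, a minimum mean of 50, a pseudocount of 0.1 or 5, a fit to 4 libraries (the 2 groups compared), a replicate block, quantile scaling, rescaling to 12 endothelial markers or to the total outside the 100 highest genes, and each library left out. No sequences were used.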

Additional observations from a re-analysis of the deposited data

How the results depend on the processing

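Of the 54 lysosomal genes, at most 1 per comparison and setting changed direction under another filter, pseudocount, set of libraries, block, quantile scaling or rescaling to the total. Rescaling to endothelial markers turned 34, 5 and 35 of them in the comparisons of OE with siblings, mutants with siblings and OE with mutants, and leaving out libraries in turn 0 to 8, 0 to 19 and 0 to 5. Genes named with a fold change that turned on the endothelial scale were, between OE and siblings psap (-0.37), npc2 (-0.37), atp6v1ba (-0.21), atp6v1d (-0.33), atp6v0a1a (-0.43), ctsba (-0.021), ctsd (-0.067) and ctsz (-0.10), and between OE and mutants hexb (-0.22), neu1 (-0.13), ctsba (-0.16), ctsd (-0.094) and atp6v1e1b (-0.27). On that scale the median of all genes moved to -0.77, 0.075 and -0.87 in the 3 comparisons. That of the 54 genes was -0.36, 0.11 and -0.41. Of them 5, 3 and 2 (9.26%, 5.56% and 3.70%) were higher without overlap, against 5.11%, 6.32% and 4.74% of all genes. Lower without overlap were 24.1%, 5.56% and 16.7% of them, against 56.5%, 5.39% and 42.8% of all genes. By adjusted p, 24, 0 and 70 genes of all kinds passed on that scale, and 0 of the 54 in each comparison. Genes passing between OE and siblings were 841 (2 of the 54) with only the 4 libraries of the 2 groups, 4 without a filter and 4 with quantile scaling; between OE and mutants 10 passed without a filter. Leaving out libraries in turn gave 0 to 838 genes (0 to 2 of the 54), 0 to 13 (0 to 0) and 0 to 2512 (0 to 8) in the 3 comparisons, medians of the 54 genes of 0.41 to 0.54, -0.15 to 0.14 and 0.34 to 0.61, and 32 to 42, 5 to 26 and 33 to 43 of them higher without overlap. For hhex these ranges were 1.59 to 2.04, 1.36 to 2.27 and -0.46 to 0.46; it passed between OE and siblings with the 4 libraries alone (1.81, limma adjusted p = 0.00639, with 0.0061 to 0.816 across alternative fits), and between OE and mutants it was 0.013 after rescaling to the total. With a library left out, fewer libraries had to stand apart, and the share of all genes higher without overlap moved too. Over the same runs this share was 26.9% to 39.2%, 13.3% to 34.5% and 24.1% to 39.9% in the 3 comparisons. The counts of 32 to 42, 5 to 26 and 33 to 43 of the 54 genes are to be read against these shares. The replicate numbers went together between siblings and mutants but not with OE. Over 11850 genes, deviations between replicates correlated at 0.49 for siblings with mutants. With OE they correlated at -0.11 for siblings and -0.20 for mutants. Over 43 of the lysosomal genes these values were 0.59, 0.0088 and -0.074. The main fit had no replicate block. With a replicate block 0 genes passed in each comparison, the median of the 54 genes staying at 0.45, 0.029 and 0.48. Crossing the OE numbers in that block, chosen after seeing the data, gave 689, 20 and 1213 genes (2, 0 and 3 of the 54), with hhex past the threshold between OE and siblings (1.81). The causes were not tested. Depth limits the genes with values under about 50, and 2 libraries a group limit all of them.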

Other observations

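Lysosomal genes that the symbol pattern did not take gave mixed values. The second lamp1 copy, written LAMP1 in the annotation, was at 187 and 220 in OE, 156 and 165 in siblings and 214 and 177 in mutants, so that both OE and mutant libraries lay above the siblings. lipf, which the table of gene names lists as the acid lipase gene, was at 223 and 138 in OE, 147 and 161 in siblings and 88 and 184 in mutants, with no separation. The tetraspanin gene cd63, a widely used marker of late endosomes and lysosomes, was at 679 and 661 in OE, 673 and 764 in siblings and 677 and 874 in mutants. Both OE libraries lay below both siblings for tmem192, a lysosomal membrane protein gene, at 13 and 16 against 36 and 29, with mutants at 77 and 42. m6pr, the receptor that carries new enzymes to the lysosome, was at 80 and 119 in OE, 246 and 126 in siblings and 204 and 152 in mutants, below both other groups in both OE libraries.

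Among accessory genes of the proton pump, atp6ap1a was at 36 and 28 in OE, 14 and 5 in siblings and 18 and 7 in mutants. Its more abundant copy atp6ap1b was at 195 and 230, 185 and 171, and 137 and 193, and atp6ap2 at 115 and 105, 109 and 103, and 62 and 102. These genes were named after their values were seen.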
